A study of Mus musculus with 8 samples.

Results

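The genes of the constitutive 26S proteasome were followed through the oligodendrocytes and microglia of 24-month-old mice. Genes were taken by symbol, Psma, Psmb, Psmc or Psmd followed by a number, if they were listed for both genotypes. The interferon-inducible Psmb8 and Psmb9 were not counted as members, and Psmb10, the third interferon-inducible catalytic subunit, was kept apart. That left 36 members of 17001 listed genes: 8 of the alpha ring and 8 of the beta ring of the 20S core, 6 ATPases and 14 other genes of the 19S regulatory particle. The data were 8 single-cell libraries made with the 10x 3′ chemistry from sorted live brain cells. Wild-type mice (C57BL/6 in the labels, C57BL/6J in the methods) gave 2 gray matter libraries (labelled prefrontal cortex) and 2 white matter libraries. Mice labelled Rag1 KO, here Rag1-/-, gave 1 gray matter and 3 white matter libraries. The labels name their strain NOD.129S7(B6)-Rag-1tm1Mom/J, whereas the methods of the study give a B6.129S7 line, so the background of these mice is not certain. Rag1-/- mice lack mature T and B cells throughout the body, not in the brain alone. Gray and white matter libraries of 1 batch came from the same pool of mice, per the study's list of animals, except that each white matter library of Rag1-/- batch 2 came from 1 mouse. The genotypes were processed in separate experiments, with no Cell Ranger version in common per the methods (the submitters' notes name version 4 for all libraries), so genotype and experiment cannot be told apart.

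The proteasome degrades proteins tagged with ubiquitin. Its 20S core is a barrel of outer alpha rings, which gate the entrance, and inner beta rings, which cut the substrate: Psmb5, Psmb6 and Psmb7 encode the catalytic subunits beta 5, beta 1 and beta 2. The 19S particle binds ubiquitin chains, removes them and unfolds the substrate with its ring of ATPases, the Psmc genes. Interferons induce Psmb8, Psmb9 and Psmb10, which replace Psmb5, Psmb6 and Psmb7 in newly built immunoproteasomes, and Psme1 and Psme2, the PA28 activator that supports production of peptides for antigen presentation. Constitutive subunit genes are known to be controlled together, with the factor Nrf1 (Nfe2l1) as the main driver when proteasome activity falls short.

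Upstream sequence is shown for the constitutive catalytic genes Psmb5 and Psmb6 and for Psmb8, the inducible counterpart of Psmb5, because the balance of that pair is followed through the cell clusters further on. RefSeq windows (GRCm38.p6) held 250 bases before and 50 bases after the transcription start. Windows were at hand for 29 of the 36 members (31 windows, as Psma6 and Psmc2 have 2), and not for Psma8, Psmb1, Psmb2, Psmb7, Psmc3, Psmd3 and Psmd7. Each line gives the 250 bases before the start, 5′ to 3′ on the gene's strand, and capitals mark a motif match. Psmb5 lies on the minus strand at chr14:54617996-54618245, Psmb6 on the plus strand at chr11:70525107-70525356 and Psmb8 on the plus strand at chr17:34197945-34198194.
Psmb5: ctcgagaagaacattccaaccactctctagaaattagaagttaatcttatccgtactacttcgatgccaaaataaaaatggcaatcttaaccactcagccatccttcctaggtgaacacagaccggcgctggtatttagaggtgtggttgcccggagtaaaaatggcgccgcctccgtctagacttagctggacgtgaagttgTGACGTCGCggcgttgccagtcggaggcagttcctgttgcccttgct
Psmb6: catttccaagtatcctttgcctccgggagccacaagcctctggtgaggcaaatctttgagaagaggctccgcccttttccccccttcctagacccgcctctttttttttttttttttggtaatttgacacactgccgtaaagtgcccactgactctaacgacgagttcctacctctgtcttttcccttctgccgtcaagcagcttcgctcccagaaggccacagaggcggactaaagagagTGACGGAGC
Psmb8: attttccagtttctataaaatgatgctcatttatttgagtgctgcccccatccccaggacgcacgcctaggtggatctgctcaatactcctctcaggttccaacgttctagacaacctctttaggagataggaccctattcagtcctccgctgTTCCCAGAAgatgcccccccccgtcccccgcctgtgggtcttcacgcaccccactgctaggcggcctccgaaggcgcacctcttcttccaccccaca
In Psmb5 and Psmb6 the capitals mark the antioxidant response element core TGACNNNGC, and in Psmb8 the gamma-activated site TTCNNNGAA. The match TGACGTCGC ended 39 bases before the Psmb5 start, TGACGGAGC ended at the base before the Psmb6 start, and TTCCCAGAA ended 89 bases before the Psmb8 start.

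Motifs were searched on both strands of the 300-base windows, and the core patterns are short enough to occur often. TGACNNNGC was found in 5 members (Psmb5, Psmb6, Psmc6, Psmd9, Psmd12), 16.1% of the members' windows against 12.4% of all 32851 windows. The CCAAT box was found in 12 members, 38.7% of their windows against 37.4% of all. The gamma-activated site TTCNNNGAA was found in Psmd2 alone, 3.23% of the windows against 8.30%. The core of the interferon-stimulated response element was found in Psmb3, Psmd4 and Psmd9, 9.68% of the windows against 3.44% of all. Psmb10 held none of these patterns in its window. Each match describes the sequence and is no evidence of a bound factor.

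The 8 libraries held 15604 oligodendrocytes, 284 to 4106 per library, with 2735825 to 43816134 UMIs summed per library. Summed levels of 5 myelin genes (Mbp, Mog, Mag, Cnp and Mobp) were 11928 to 17469 counts per 1000000 (CPM) in them, and those of 8 microglia genes 82.0 to 935.4 CPM. The 7421 Rag1-/- microglia showed the reverse, 43628 to 44923 CPM of microglia genes and 196.9 to 633.9 CPM of myelin genes. The microglia genes in oligodendrocytes were lowest in both wild-type batch 2 libraries and highest in both wild-type batch 1 libraries, and their part in the results was not tested. Of 29539 cell barcodes, 92 (0.311%) occurred in more than 1 library. Rag1, the targeted gene, was at 0, 0.15, 0 and 0.42 CPM over all cells of the wild-type libraries (27 UMIs) and at 1.43, 1.87, 2.20 and 1.79 CPM in the Rag1-/- libraries (301 UMIs). These counts are tags from the 3′ end, which can come from sequence the targeted allele keeps, so they do not check the labels. In the interferon-responsive oligodendrocytes, the 5 listed T cell genes (Cd3d, Cd3e, Cd3g, Trbc2, Cd8b1) summed to 8.90 and 2.19 CPM in wild-type white matter and were each at 0 in the 3 Rag1-/- libraries.

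CPM here are scaled to the UMIs of the 16999 genes used, in all cells of a class summed within a library. The 36 members together made up a near constant share of oligodendrocyte RNA. Their summed level was 4667.0 and 4499.1 CPM in wild-type gray matter, 4886.2 and 4687.0 CPM in wild-type white matter, 4420.5 CPM in Rag1-/- gray matter, and 4567.4, 4821.3 and 5019.0 CPM in Rag1-/- white matter. In each genotype every white matter library lay above every gray matter library, and the Rag1-/- white matter libraries spread over a range that held all but 1 of the wild-type libraries. In cells summed over all clusters, a shift in the mix of clusters and a change within cells cannot be told apart. Oligo1 and Oligo2 cells are therefore also compared alone below. Both pool smaller clusters, whose mix differed between tissues too. In wild-type batch 2, the Oligo2c cluster made up 1 of 1114 such cells in gray matter and 348 of 3097 in white matter. That comparison thus cannot separate mix from change within cells either. A cell held 40.0 to 63.0 UMIs of the 36 genes on average, depending on the library.

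By role, the alpha ring summed to 1048.1 to 1212.9 CPM over the 8 libraries, the ATPases to 742.1 to 878.6 CPM and the other 19S genes to 1331.4 to 1468.1 CPM. The beta ring spread most in Rag1-/- libraries. It summed to 1250.4 CPM in gray and 1237.2 CPM in white matter of batch 1, and to 1473.9 and 1553.6 CPM in the white matter libraries of batch 2. All 4 wild-type libraries lay between, at 1325.4 to 1391.7 CPM. Of the 36 members, 34 passed the filter on low counts in oligodendrocytes. Psma8, the alpha subunit of testis proteasomes, had 3 UMIs in all oligodendrocytes, and Psmb11, the thymus-specific beta 5 subunit, had 6.

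**Figure D1:**
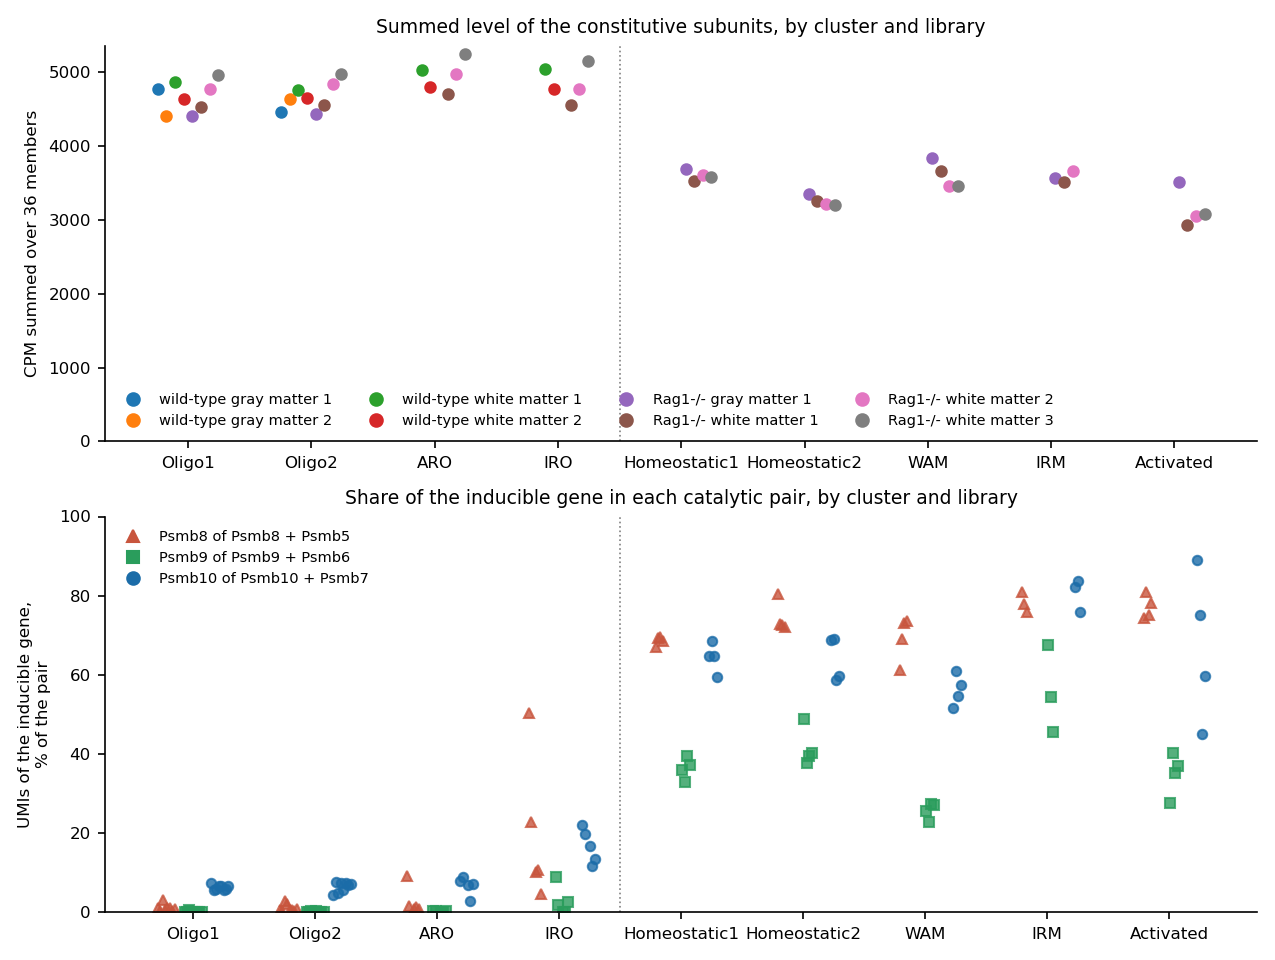
Summed level of the 36 constitutive members (CPM) and share of UMIs from the inducible partner of each catalytic pair (percent), by cluster, with 1 point per library. Oligodendrocyte clusters lie between 4411 and 5249 CPM and microglia clusters between 2931 and 3839 CPM, and the Psmb8 share of both wild-type IRO libraries, 50.4% and 22.8%, is above that of every other oligodendrocyte point.

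The first question was whether proteasome genes differ between white and gray matter in wild-type mice. Almost all members were slightly higher in white matter, 32 of 34, with a median log2 fold change of 0.08 against -0.01 over all 13067 genes tested. No member passed the threshold: 0 of 34 were called at an adjusted p of 0.05 by edgeR, against 1.00% of all genes, and DESeq2 also called 0. At an unadjusted p of 0.05 there was 1 member by either tool, against 9.58% of all genes by edgeR. The 95% interval lay within 0.5 log2 units of 0 for 31 of the 34, against 33.2% of all genes. The median SE was 0.12 for the members and 0.20 over all genes, so these shares compare genes of unlike precision. The members also had the lower median SE in each comparison below.

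Psmb2, a noncatalytic beta ring subunit, stood furthest from 0. Its level was 137.8 and 148.1 CPM in gray matter and 167.8 and 181.1 CPM in white matter, without overlap. The log2 fold change was 0.30 (SE 0.11, edgeR adjusted p = 0.373). With the pool of mice as a block, which uses that gray and white matter came from the same animals, Psmb2 was called at 0.30 (edgeR adjusted p = 0.0176), in a fit that called 8.02% of all genes. Psma2, an alpha ring subunit, was next at 0.22 (185.3 and 201.6 against 221.8 and 224.9 CPM; edgeR adjusted p = 0.571), followed by the scaffold subunit Psmd2 at 0.19 and the ATPase Psmc5 at 0.15. The groups did not overlap for 13 members, against 38.5% of all genes.

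The catalytic subunits differed little between the tissues of wild-type mice. Psmb5 was at 157.5 and 172.9 CPM in gray and 174.0 and 175.0 CPM in white matter, a log2 fold change of 0.09. Psmb6 was at 0.01 and Psmb7 at -0.07, with groups that overlapped, and Psmb10 was at 11.3 and 10.3 against 11.7 and 11.96 CPM, 0.16 on the log2 scale (edgeR adjusted p = 0.952). The inducible Psmb8 was at 1.5 and 0.9 CPM in gray matter and 19.3 and 4.1 CPM in white matter, a log2 fold change of 3.42 that edgeR did not call (adjusted p = 0.132) and DESeq2 did (adjusted p = 0.000276). Psmb9 was at 0.4 CPM or below in gray and at 2.3 and 0.7 CPM in white matter (edgeR adjusted p = 0.413). For Psme1 and Psme2 the fold changes were 0.41 and 0.15, neither called.

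Genes around the proteasome were taken from 7 lists of 37 genes that passed the filter: inducible partners, other activators and the inhibitor, assembly chaperones, receptors and deubiquitinases, ubiquitin genes, shuttle factors with the segregase Vcp, and transcriptional regulators. In wild-type tissues edgeR called 1 of the 37, against 1.00% of all genes. DESeq2 called 2, Psmb8 as given above and the regulator Stat3. Both tools called Stat3, which rose by 1.33 in white matter (edgeR adjusted p = 0.00667). Nfe2l1, the gene of Nrf1, had a log2 fold change of -0.08, and the assembly chaperone gene Pomp one of 0.11.

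The same comparison in Rag1-/- mice rests on 1 gray matter library, so its spread is borrowed from the other groups in the fit. Of the 34 members, 28 had a positive fold change (white over gray matter), and the median was 0.11 against 0.02 over all genes. edgeR called 0 members, against 0.436% of all genes, with 0 at an unadjusted p of 0.05 (9.62% of all genes). DESeq2 called 0 and gave 1 at an unadjusted p of 0.05. The 95% interval lay within 0.5 of 0 for 23 members, against 22.9% of all genes, and reached 1.16 for Psmb7. The 17 members without overlap compare with 61.4% of all genes.

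The members of smallest p in this comparison were Psma5 (0.32), Psmb4 (0.38), Psmb7 (0.54) and Psmc2 (0.26), none called. Psmb7 was at 105.4 CPM in gray and 105.1 CPM in white matter of batch 1, and at 172.2 and 177.2 CPM in white matter of batch 2. Within batch 1, where both tissues came from the same mice, the white minus gray log2 difference was 0.00 for Psmb7, 0.07 for Psmb4, 0.15 for Psma5 and 0.14 for Psmc2, and the median over members was 0.06. Without the batch 1 white matter library, the fit called Psmb7 at 0.75 (edgeR adjusted p = 0.0309) and no other member, against 2.11% of all genes. With the pool of mice as a block edgeR called 0 members (3.63% of all genes) and put Psmb7 at -0.02 on the log2 scale. For Rag1-/- libraries the block was the batch, which the white matter libraries of batch 2 shared although each came from 1 mouse. The blocked tissue difference is thus that of the gray and white matter libraries of batch 1 alone. Without the block Psmb5 was at -0.01 and Psmb6 at 0.06, and with it at -0.12 and -0.19. Psmb10 was at 0.62 (edgeR adjusted p = 0.603), and at 0.08 within batch 1. Psmb8, Psmb9, Psme1 and Psme2 were at -0.14, 0.36, -0.03 and 0.07. Of the 37 surrounding genes, Stat3 was called again, 1.14 higher in white matter (edgeR adjusted p = 0.0258).

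**Figure D2:**
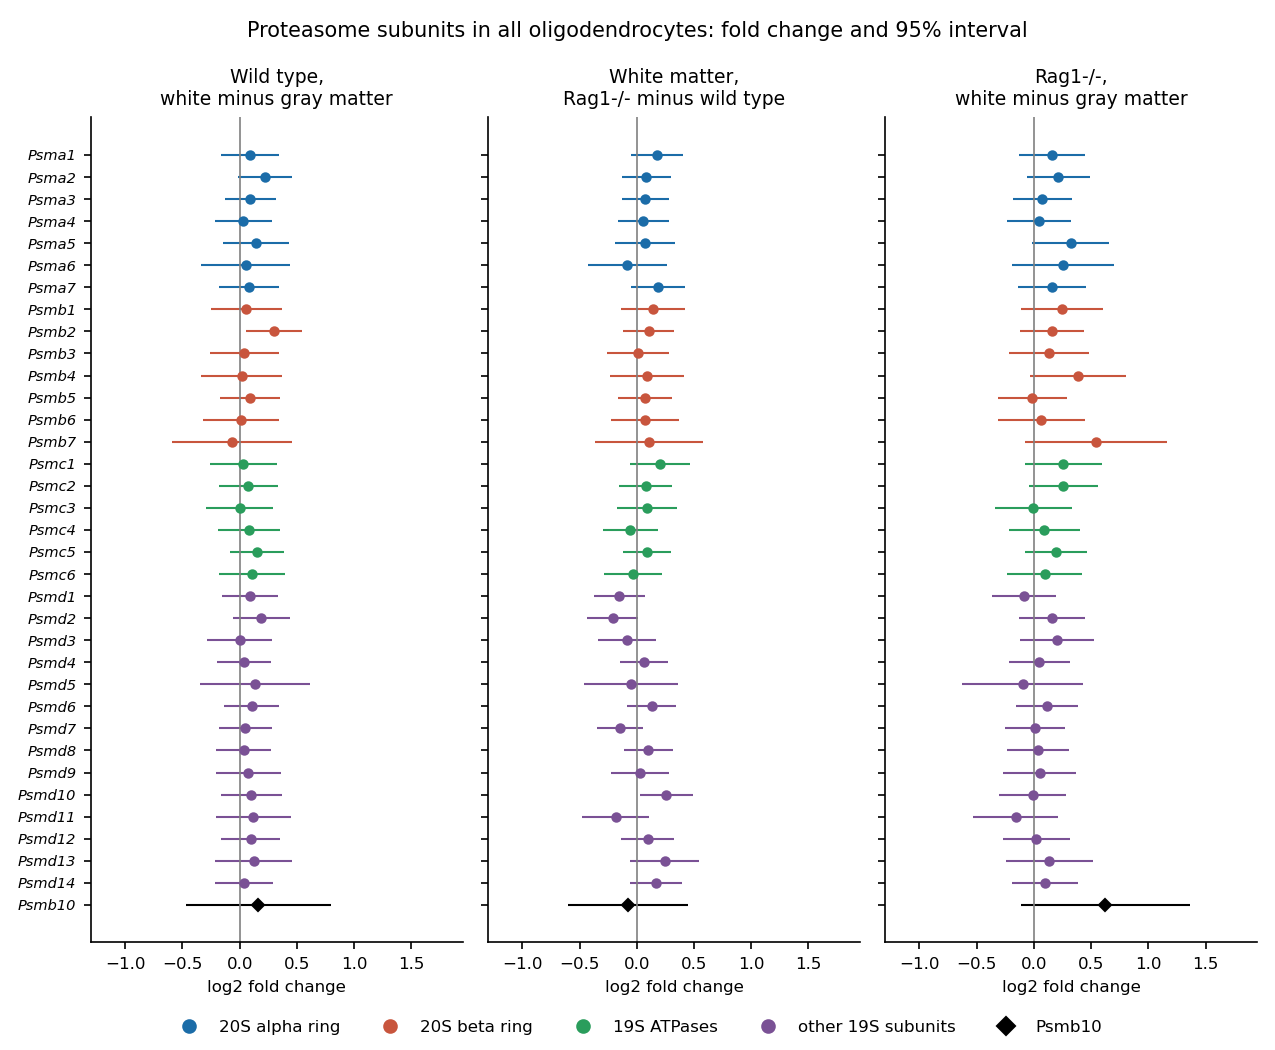
Log2 fold change with its 95% interval (edgeR) of 34 members and Psmb10 in all oligodendrocytes, for white against gray matter in each genotype and for Rag1-/- against wild-type white matter. Most points lie within 0.3 of 0 and the intervals of Psmb7 and Psmb10 are among the widest.

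Rag1-/- and wild-type white matter also gave similar levels. Of the 34 members, 25 were higher in Rag1-/- oligodendrocytes, with a median of 0.08 against 0.01 over all genes. edgeR and DESeq2 called 0 members, against 0.911% of all genes by edgeR, and 1 by edgeR and 0 by DESeq2 passed an unadjusted p of 0.05 (8.29% of all genes by edgeR). The interval lay within 0.5 of 0 for 32 of 34 members, against 42.2% of all genes. Groups did not overlap for 8 members, against 27.4% of all genes.

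Psmd10, a chaperone of 19S assembly, was at 29.0 and 30.4 CPM in wild-type and 34.3, 33.5 and 35.3 CPM in Rag1-/- white matter, a log2 fold change of 0.26 (SE 0.10, edgeR adjusted p = 0.542). The groups did not overlap, and the Rag1-/- gray matter library lay in the Rag1-/- white matter range. Psmd2 went the other way, with 142.3 and 133.5 CPM against 110.2, 117.9 and 116.8 CPM (-0.21, edgeR adjusted p = 0.629). Psmd13 and Psma7 were at 0.24 and 0.19. The catalytic genes Psmb5, Psmb6 and Psmb7 were at 0.07, 0.07 and 0.10, and Psmb10 at -0.08 (edgeR adjusted p = 0.981). Psmb8 was at 1.7, 0.8 and 1.7 CPM in Rag1-/- white matter against the 19.3 and 4.1 CPM given above, and its fold change of -2.92 was not called by edgeR (adjusted p = 0.0758) and was by DESeq2 (adjusted p = 1.56e-05). Psmb9, Psme1 and Psme2 were at -1.70, -0.22 and 0.03, and edgeR called 0 of the 37 surrounding genes. DESeq2 called 2 of them, Psmb8 and Stat3 (-0.52, DESeq2 adjusted p = 0.0210).

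The tissue difference was compared between the genotypes with an interaction term. edgeR called 0 members and 0 of all genes, with 0 members and 1.81% of all genes at an unadjusted p of 0.05, and DESeq2 gave 0 members at both thresholds. The interval lay within 0.5 of 0 for 18 members (9.81% of all genes), and with the replicate block 0 members were called (0.0459%), with Psmb7 at 0.06, Psmb6 at -0.20 and Psmb10 at -0.09. The members of smallest p were Psmb7 (0.61, 95% interval -0.20 to 1.42), Psmb4 (0.37), Psmd11 (-0.28) and Psmc1 (0.22). Psmb5, Psmb6 and Psmb10 were at -0.10, 0.05 and 0.46.

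Oligodendrocytes of the Oligo1 and Oligo2 clusters alone gave the same picture. edgeR and DESeq2 called 0 of 34 members for tissue in wild type (0.606% of all genes by edgeR), for genotype (0.798%) and for tissue in Rag1-/- (0.430%). At an unadjusted p of 0.05, edgeR gave 1, 1 and 0 members (8.62%, 6.82% and 9.42% of all genes) and DESeq2 1, 0 and 1. Intervals lay within 0.5 of 0 for 30, 29 and 23 members (32.5%, 41.5% and 22.5% of all genes), and groups did not overlap for 6, 8 and 17 (36.7%, 25.3% and 61.1%). Psmb2 again had the smallest p in wild-type tissues (0.29, edgeR adjusted p = 0.5005). With the pool of mice as a block it was called at 0.28 (edgeR adjusted p = 0.0287), where 6.70% of all genes were called. The spread of that fit has the limit given above. Without the block, next by p were Psma2, Psmc5 and Psmd2 at 0.21, 0.13 and 0.13. Between genotypes the members of smallest p were Psmd10 (0.30), Psma1 (0.19), Psmd2 (-0.18) and Psma7 (0.16). Between Rag1-/- tissues these were Psmb4 (0.34), Psma5 (0.27), Psmb7 (0.50) and Psmc2 (0.22), and without the batch 1 white matter library Psmb7 was called at 0.75 (edgeR adjusted p = 0.0351; 1.91% of all genes were), whereas the block by pool called 0 members (3.88%). For the interaction 0 members were called by edgeR or DESeq2, with 0 at an unadjusted p of 0.05 by both and 1.42% of all genes by edgeR, and Psmb7 had the smallest p, at 0.56. The interval lay within 0.5 of 0 for 15 members (9.01%), and the block called 0 members (0.0461%).

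Psmb5, Psmb6 and Psmb7 were at 0.05, -0.02 and -0.07 between wild-type tissues, at 0.07, 0.08 and 0.08 between genotypes, and at -0.07, 0.02 and 0.50 between Rag1-/- tissues. Psmb10 was at -0.07, 0.15 and 0.58 in the same order, none called. With the block by pool the values of 0.50 for Psmb7 and 0.58 for Psmb10 were -0.05 and 0.01. Psmb8 was at 2.22, -1.57 and -0.46, Psme1 at 0.27, -0.11 and -0.11 and Psme2 at -0.02, 0.14 and -0.01, none called by either tool. Psmb9 was at 3.17, -0.93 and 0.22, at mean levels under 1 CPM, and was not called. Of the surrounding genes Stat3 was called between wild-type tissues (1.03, edgeR adjusted p = 0.0189), and between Rag1-/- tissues by DESeq2 (adjusted p = 0.000183) but not by edgeR (0.95, adjusted p = 0.0612).

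The clusters themselves were compared within libraries. Since the authors drew the clusters from the same cells' expression, these values describe the clusters and were not tested. The interferon-responsive oligodendrocytes (IRO) are marked by interferon-induced genes: Ifit3, Usp18, Ifi27l2a, Isg15 and B2m summed to 2362.3 and 1685.4 CPM in wild-type and 895.7 to 1081.5 CPM in Rag1-/- IRO. In white matter, IRO numbered 29 of 494 and 123 of 4106 oligodendrocytes in wild type. In Rag1-/- white matter they numbered 39 of 3055, 17 of 1632 and 33 of 3859, a smaller share in each library. Wild-type gray matter had 1 and 5, too few to use. Age-related oligodendrocytes (ARO), marked by Serpina3n and C4b, numbered 107 and 886 in wild-type and 421, 114 and 609 in Rag1-/- white matter. Of the same totals, this too was a smaller share in each Rag1-/- library. The shares were not tested here.

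Constitutive proteasome genes in IRO were near the level of the Oligo1 and Oligo2 cells of the same library. The summed level of the 36 members in IRO was 5048.1 and 4778.0 CPM in wild-type and 4558.8, 4775.9 and 5159.1 CPM in Rag1-/- white matter. Over the 34 members the median of the log2 ratio (on CPM + 1, median over 5 libraries) was 0.04, against -0.02 over 8397 genes with enough UMIs. Only Psmd5 lay beyond 0.5, whereas 9.15% of all genes did. Psmd4 was higher in all 5 libraries (5.29% of all genes were), by 0.10, and Psmb7, Psmd5 and Psmd13 were lower in all 5 (6.61% of all genes were), by 0.19, 0.55 and 0.04 at the median.

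Named by role, the highest ratios were those of the 19S genes Psmd2 (0.25), Psmd14, the deubiquitinase of the lid (0.16), and the ATPases Psmc1 (0.19) and Psmc6 (0.16), each lower in at least 1 library. The lowest were Psmd5, a chaperone of 19S assembly (-0.55, on 35 UMIs in IRO), Psmb7 (-0.19), Psma2 (-0.16) and Psma5 (-0.15). Psmb7 was at 136.5 and 138.0 CPM in wild-type and 69.1, 154.6 and 150.7 CPM in Rag1-/- IRO. Psmb5 was at 195.9 and 176.0 CPM in wild-type and 168.6, 170.0 and 180.2 CPM in Rag1-/- IRO, a ratio of 0.02 to the other cells. Psmb6 was at 0.05, higher in 3 of 5 libraries.

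The inducible partners were higher in the same IRO cells. Psmb10 was at 38.6 and 34.3 CPM in wild-type and 13.8, 20.6 and 23.6 CPM in Rag1-/- IRO, on 77 UMIs in all. Its ratio to Oligo1 and Oligo2 was 0.83, with a range of 0.75 to 1.97, and was higher in 5 of 5 libraries. That exceeded the ratio of 98.8% of the genes and of each of the 34 constitutive members. Psmb8 was higher by 3.84 (5 of 5 libraries), Psme1 by 0.93 (5 of 5), Psme2 by 0.60 (4 of 5) and Psmb9 by 2.01 (3 of 5, on 18 UMIs). Interferon genes define the cluster, so the height of these genes is part of how the cells were grouped.

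**Figure D3:**
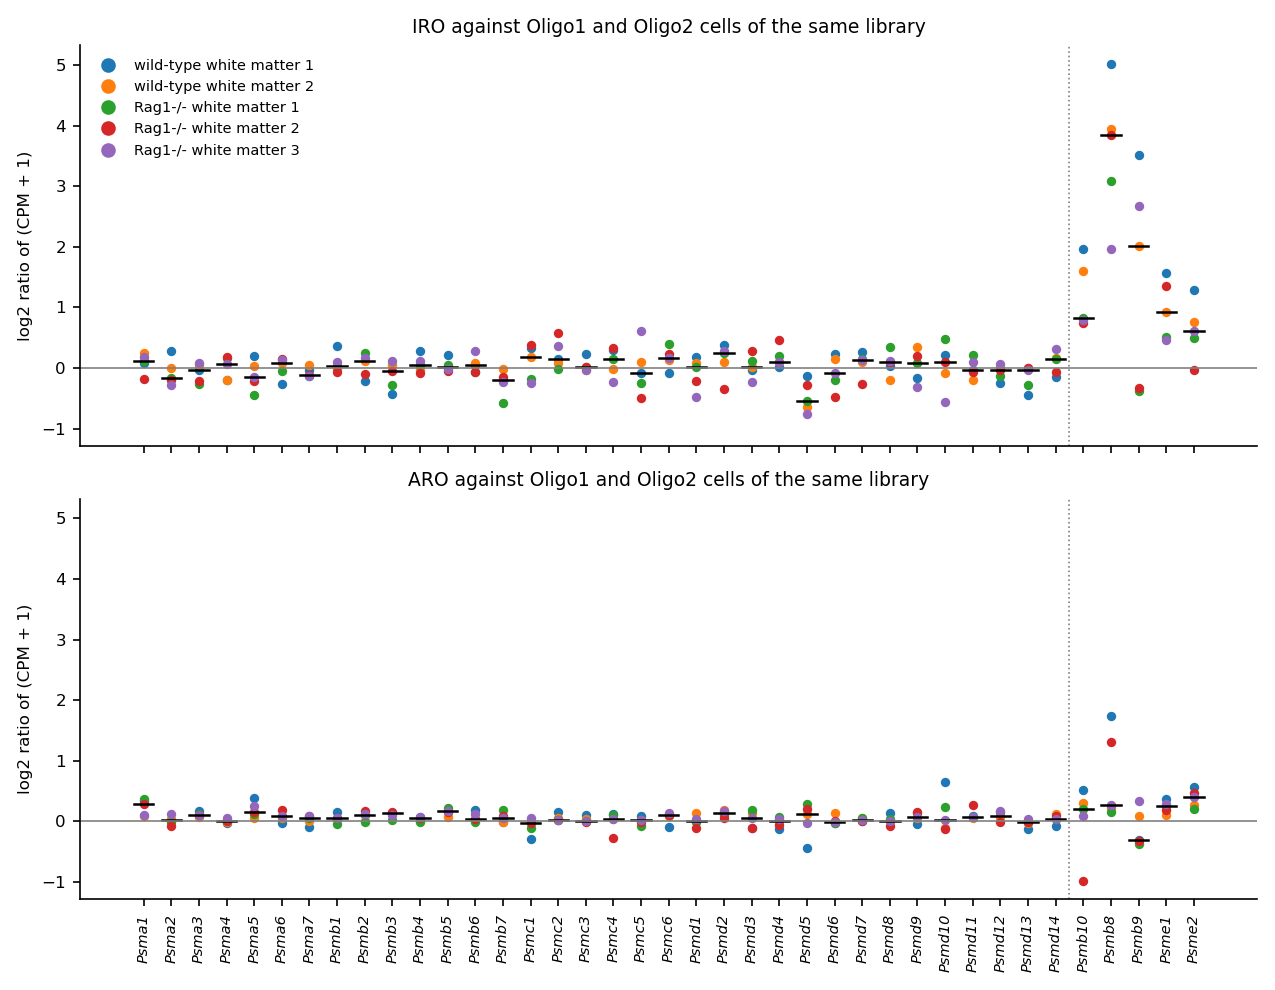
Log2 ratio of CPM + 1 of each member in IRO and in ARO to Oligo1 and Oligo2 cells of the same library, with 1 point per library and a bar at the median. The constitutive members scatter around 0, and Psmb10 in IRO lies above 0 in 5 of 5 libraries.

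The balance within each catalytic pair showed the same in counts. Of the UMIs of Psmb8 and Psmb5 together, Psmb8 gave 0.28% to 2.97% in Oligo1 and Oligo2 cells. In IRO it gave 50.4% (exact 95% interval 41.6% to 59.2%) and 22.8% (18.2% to 27.8%) in wild-type libraries, and 10.3% (4.24% to 20.1%), 10.8% (3.03% to 25.4%) and 4.69% (0.977% to 13.1%) in Rag1-/- libraries, on 7, 4 and 3 Psmb8 UMIs. In ARO it gave 0.87% to 9.32%, the highest in the wild-type batch 1 library, so the ARO range reached that of Rag1-/- IRO. For Psmb10 against Psmb7 the share was 5.52% to 7.10% in Oligo1 and Oligo2 cells, 22.03% and 19.9% in wild-type IRO and 16.7%, 11.8% and 13.6% in Rag1-/- IRO. The shares of wild-type and Rag1-/- IRO did not overlap for either pair. The exact intervals did overlap between the genotypes, for Psmb10, on 4 to 47 UMIs, and for Psmb8 between wild-type batch 2 and the first 2 Rag1-/- libraries. Psmb9 gave 0% to 0.49% of its pair with Psmb6 in Oligo1 and Oligo2 cells, 8.89% and 1.87% in wild-type IRO, and 3 of 117 UMIs (2.56%) in 1 of the 3 Rag1-/- libraries. The intervals cover counting error only. These shares compare clusters for 1 pair and are not the ratio of the proteins.

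Between genotypes IRO could be tested, over 2 wild-type and 3 Rag1-/- white matter libraries. Psma8, Psmb11 and Psmd5 failed the filter, and of 33 members 20 were higher in Rag1-/-, with a median of 0.04 against 0.02 over 5418 genes. edgeR and DESeq2 called 0 members, with 0 at an unadjusted p of 0.05 by both; edgeR called 0.794% of all genes and gave 5.13% at an unadjusted p of 0.05. Groups did not overlap for 9 members, against 20.1% of all genes. The interval lay within 0.5 of 0 for 6 of 33 members, against 7.57% of all genes, with a median SE of 0.24. The members of smallest p were Psmd8 (0.45), Psmd1 (-0.44), Psma4 (0.38) and Psmd13 (0.34), each with an edgeR adjusted p = 0.996. Psmb5, Psmb6 and Psmb7 were at -0.03, 0.09 and -0.13.

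Among the inducible genes in IRO, Psmb8 fell by 2.71 on the log2 scale in Rag1-/- mice (means of 16.3 against 125.3 CPM, edgeR adjusted p = 0.0254, DESeq2 adjusted p = 0.00161). Its values were 198.8 and 51.8 CPM in wild type and 19.4, 20.6 and 8.9 CPM in Rag1-/-, without overlap. The call was lost when any 1 library was left out except wild-type batch 2, with fold changes of -1.65 without wild-type batch 1 and -2.37 to -2.88 without a Rag1-/- library. Psmb10 was at means of 19.4 against 36.5 CPM, a fold change of -0.84 that was not called (edgeR adjusted p = 0.996, interval -1.79 to 0.10). Psme1 and Psme2 were at -0.55 and -0.41, not called, and Psmb9 failed the filter. The IRO microglia genes, 557.9 CPM in batch 1 and 80.3 CPM in batch 2 of the wild type and 128.8 to 279.2 CPM in Rag1-/-, were highest in the library with the most Psmb8, and their part in it was not tested.

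In ARO the members lay slightly above Oligo1 and Oligo2. The median ratio was 0.05 against 0.00 over 11087 genes, and 9 of 34 members were higher in all 5 libraries (14.8% of all genes were), while 0 were lower in all 5 (15.2%). None lay beyond 0.5, whereas 9.79% of all genes did. Psma1, an alpha ring subunit, was highest at 0.28, from 0.09 to 0.37 over the libraries. Psma5 and the catalytic Psmb5 followed at 0.16 each and Psmd2 at 0.14, all higher in 5 of 5 libraries. The lowest were Psmc1 (-0.03), Psmd13 (-0.02), Psmd6 (-0.01) and Psmd1 (0.00). Psmb6 and Psmb7 were at 0.03 and 0.05 and Psmb10 at 0.21, with a range of -0.99 to 0.51. Psmb8, Psme1 and Psme2 were higher in 5 of 5 libraries, by 0.26, 0.25 and 0.40, and Psmb9, on 13 UMIs, was at -0.31.

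Rag1-/- and wild-type ARO were compared over the same 5 libraries. Of 34 members 27 were higher in Rag1-/-, with a median of 0.08 against 0.00. edgeR and DESeq2 called 0 members and gave 0 at an unadjusted p of 0.05, where edgeR called 0.990% of 10102 genes and gave 5.74% at the unadjusted threshold. The interval lay within 0.5 for 25 members, against 29.7% of all genes. Groups did not overlap for 11 members, against 23.2% of all genes. Psmc1 (0.30), Psmd13 (0.33), Psma7 (0.28) and Psmd2 (-0.24) had the smallest p, each with an edgeR adjusted p of at least 0.868. Psmb5, Psmb6 and Psmb7 were at 0.14, 0.04 and 0.19, Psmb10 at -0.31, Psmb8 at -1.97, Psme1 at 0.00 and Psme2 at 0.11, none called. With the batch number as a block, edgeR called 0 members between genotypes in all oligodendrocytes (0.964% of all genes), Oligo1 and Oligo2 (0.844%), ARO (1.10%) and IRO (0.812%).

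Oligo2 differed even less from Oligo1. Over 8 libraries the median ratio of the members was 0.00, as for all 12278 genes, and none lay beyond 0.5 (10.1% of all genes did). Psmb3, a noncatalytic beta subunit, was lower in 8 of 8 libraries (8.49% of all genes were), by 0.17, and 0 members were higher in all 8 (10% of all genes were). The next lowest were Psmd5 (-0.08), Psma1 (-0.05) and Psmb6 (-0.04), and the highest Psmd13 (0.15), Psmc1 (0.15), Psmd10 (0.12) and Psma4 (0.11). Psmb5 and Psmb7 were at -0.04 and -0.03, Psmb10 at 0.10, Psmb8 at -0.08, Psmb9 at -0.04, Psme1 at -0.24 and Psme2 at -0.02.

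Several constitutive genes stepped between the Rag1-/- batches. In oligodendrocytes of white matter, batch 2 exceeded batch 1 by 0.73 on the log2 scale for Psmb7, 0.46 for Psma6, 0.42 for Psmb4, 0.33 for Psmb6 and 0.31 for Psmb1. Psmd11, a lid subunit, was lower by 0.40. Psma6 was at 107.5 CPM in gray and 101.3 CPM in white matter of batch 1, and at 140.6 and 138.7 CPM in batch 2. Psmd11 was at 131.0 and 139.3 CPM in batch 1 and 104.2 and 106.0 CPM in batch 2. For both genes the gray matter library stood with the white matter library of its own batch. Psmb10 followed the pattern, with 7.1 and 7.6 CPM in batch 1 and 11.5 and 13.4 CPM in batch 2.

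Genes in general showed this step. The batch 2 libraries did not overlap both batch 1 libraries for 21 of 34 members (61.8%), against 60.4% of 11973 genes, and 6 members differed by more than 0.3, against 30.8% of all genes. In the microglia of the same libraries some of these genes differed likewise: Psmb7 was higher in batch 2 by 0.55, Psmb1 by 0.25 and Psmb4 by 0.18, and Psmd11 lower by 0.32, while Psma6 was at 0.13, Psmb6 at -0.03 and Psmb10 at 0.09. Over 34 members the batch differences of the 2 cell types had a Pearson r of 0.83, and over 4465 genes above 20 CPM an r of 0.75. The points share their libraries, experiments and processing. Batch, mice and the Cell Ranger version that the methods give cannot be told apart. In wild type, batch 2 and batch 1 did not overlap for 19 of 34 members, against 42.5% of all genes, and only Psmd5 differed by more than 0.3 (0.36), against 23.7% of all genes.

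**Figure D4:**
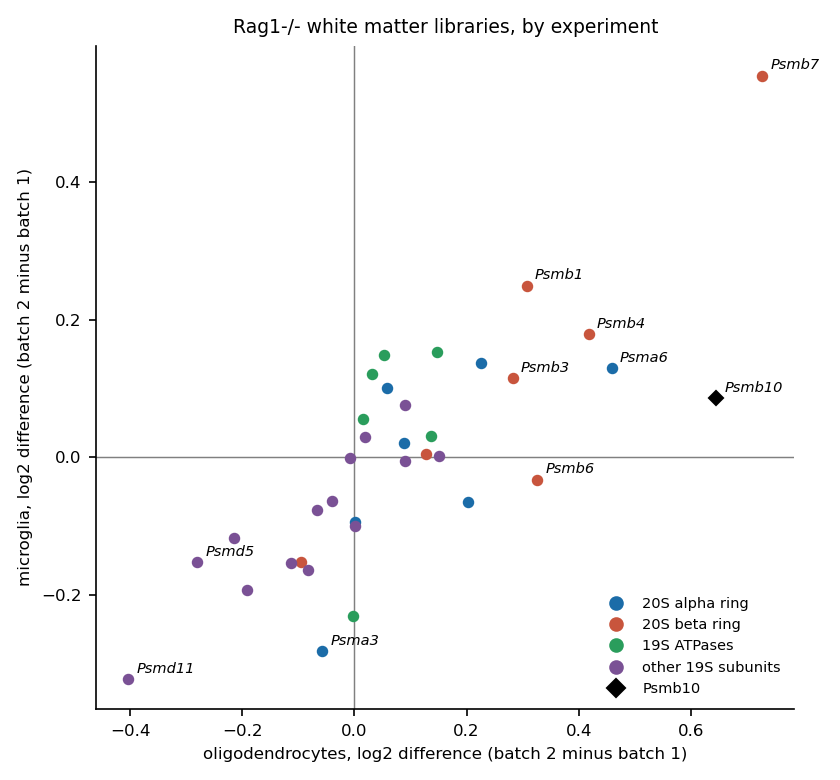
Difference between Rag1-/- white matter batch 2 and batch 1 (log2 CPM + 1) of each member, in oligodendrocytes on the horizontal and in microglia on the vertical axis. Psmb7 lies furthest to the upper right and Psmd11 to the lower left.

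Microglia of the Rag1-/- libraries devoted less of their RNA to the constitutive genes. The 36 members summed to 3691.4 CPM in gray matter and 3411.3, 3409.7 and 3407.5 CPM in white matter, below the oligodendrocytes of each of the same 4 libraries, with 19.5 to 23.2 UMIs per cell. The difference between cell types was not tested. Of the single members, Psma1, Psma8 and Psmd12 were higher in microglia than in oligodendrocytes of each of the 4 libraries. Psma1 was at 141.7 CPM in gray and 134.8, 132.6 and 120.3 CPM in white matter microglia, and Psma8 at 3.9 to 9.6 CPM on 295 UMIs, against at most 0.1 CPM in oligodendrocytes. The inducible subunits filled a larger share of each pair than in oligodendrocytes: in homeostatic microglia Psmb8 gave 67.2% to 72.0% of the UMIs with Psmb5, Psmb9 36.1% to 39.6% with Psmb6, and Psmb10 59.6% to 68.9% with Psmb7.

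White and gray matter microglia were compared over 3 white and 1 gray matter libraries, so the spread comes from the white matter libraries alone, which are of both batches. The scaling matters here: in batch 1 the median of all genes was lower in white matter by 0.23 on the CPM scale, while TMM scaling put it at 0.02 over the 4 libraries, and fold changes below are on the TMM scale. edgeR called 0 of 35 members, against 3.46% of 12050 genes, and 2 members had an unadjusted p under 0.05, against 15.7%. DESeq2 called 0 and gave 1 at an unadjusted p of 0.05. The median of the members was 0.10 against 0.02 over all genes, and 23 of 35 were higher. The direction of the members rests on this scaling: on library size alone their median was -0.14, 7 of 35 had a higher mean CPM in white matter, and within batch 1 their median was -0.16 on the CPM scale. The interval lay within 0.5 for 18 members, against 17.7% of all genes. Groups did not overlap for 26 members, against 72.0% of all genes.

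Psmb1, a noncatalytic beta subunit, had the smallest p, with 157.4 CPM in gray and 168.0, 204.0 and 195.9 CPM in white matter (0.50, edgeR adjusted p = 0.175). Psmb4 was at 117.2 CPM against 117.6, 125.9 and 141.1 CPM (0.36, edgeR adjusted p = 0.317), and Psma7 and Psma5 were at 0.31 and 0.29. The fold change of largest size was that of Psma8, at 9.6 CPM in gray and 5.7, 3.9 and 6.4 CPM in white matter (-0.59, edgeR adjusted p = 0.454). The catalytic genes Psmb5, Psmb6 and Psmb7 were at 0.10, 0.23 and 0.37, none called, and the block by pool put Psmb7 at -0.01. On library size alone Psmb5 and Psmb6 were at -0.14 and -0.01. Psmb10 was at 0.16 (edgeR adjusted p = 0.608), and at -0.07 on library size alone. Without the batch 1 white matter library, edgeR called 5 members: Psmb1 (0.55), Psmb7 (0.52), Psmb4 (0.40) and Psma5 (0.31) higher, and Psmd11 (-0.33) lower, in a fit that called 24.7% of all genes. The gray matter library is of batch 1, so tissue and batch cannot be told apart in that fit. With the pool of mice as a block, here the batch, the tissue difference is that of the batch 1 libraries alone. Psmb1 was at 0.33 in that fit, and at 0.09 between the same libraries on the CPM scale. The spread in that fit comes from the white matter libraries of batch 2 only, so no call is given for it. Psme1 was at 0.57, not called by edgeR (adjusted p = 0.0737) and called by DESeq2 (adjusted p = 0.00849). Psme2 was at 0.42, Psmb8 at 0.39 and Psmb9 at 0.15, none called. Of the surrounding genes Rps27a, which encodes ubiquitin fused to a ribosomal protein, was called at 0.93 (edgeR adjusted p = 0.0101), and DESeq2 also called Sem1, a small 19S subunit outside the naming rule.

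Among microglia clusters, white matter-associated microglia (WAM) held the constitutive genes at the homeostatic level. Their median ratio to Homeostatic1 and Homeostatic2 cells was 0.02 over 35 members, against -0.23 over 10319 genes, in 4 libraries. With TMM scaling in place of CPM the members were at 0.22, so the sign of small ratios rests on the scaling. Members higher in 4 of 4 libraries numbered 8 (10.1% of all genes were), and 1, Psmc2, was lower in all 4 (34.4%). Psmb6 was highest at 0.44, followed by Psmb4 (0.33), Psmb7 (0.21) and Psmd8 (0.20). The lowest were the ATPases Psmc5 (-0.26) and Psmc4 (-0.17), Psmd5 (-0.21) and Psmd14 (-0.20), each higher in at least 1 library. White matter batch 1 had the most WAM cells (799). There Psmc5 was at 82.4 against 74.3 CPM, Psmc4 at 70.3 against 60.9 and Psmd14 at 56.0 against 53.6. Psmb5 was at 0.02. Psmb10 was lower in 4 of 4 libraries, by 0.22, which is near the median of -0.23 over all genes and above 51.3% of them. Psmb9 was lower by 0.35, while Psmb8, Psme1 and Psme2 were at 0.07, -0.01 and 0.12.

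IFN-responsive microglia (IRM) had 15, 37 and 13 cells in the 3 libraries with enough of them. There Psmb10 was higher in 3 of 3 libraries by 1.16, Psmb8 by 0.72, Psmb9 by 1.18, Psme1 by 0.98 and Psme2 by 1.08, as members of the response that marks the cluster. The constitutive genes had a median ratio of 0.12 over 31 members, against -0.04 over 3719 genes. Without 1 library at a time it was 0.08 (gray matter), 0.0068 (white matter batch 1) and -0.06 (the first batch 2 white matter library), the last of which turned its direction. They scattered widely on few UMIs, with 6 higher in every library (18.9% of all genes were), 4 lower (20.3%) and 3 beyond 0.5 (26.2%). Psma5 (0.60), Psmb4 (0.34), Psmc1 (0.33) and Psma3 (0.25) were highest and Psma6 (-0.64), Psmb2 (-0.62), Psmd3 (-0.39) and Psmd1 (-0.38) lowest. Psmb5, Psmb6 and Psmb7 were at 0.22, 0.13 and -0.14. The share of Psmb10 in its pair was 75.9% to 83.6%, that of Psmb9 45.5% to 67.6% and that of Psmb8 75.8% to 80.9%.

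Activated microglia held shallower cells, with a median of 2254.5 to 5787 UMIs. The members had a median ratio of -0.25, against -0.58 over 5415 genes, and TMM scaling turned it to 0.31. Psmb1 (0.38) and Psmd8 (0.19) were higher in 4 of 4 libraries (8.33% of all genes were), Psmb4 and Psmb3 were at 0.29 and 0.10, and 13 members were lower in all 4 (54.6%). The lowest were Psmd7 (-0.81), Psmc1 (-0.77), Psmc6 (-0.68) and Psmd6 (-0.60), and 8 lay beyond 0.5 (59.8%). By role the medians were -0.52 for the ATPases, -0.35 for the other 19S genes, -0.23 for the alpha ring and 0.07 for the beta ring. Psmb5, Psmb6 and Psmb7 were at -0.29, 0.01 and -0.32 and Psmb10 at -0.10. Psmb8, Psmb9, Psme1 and Psme2 were at 0.15, 0.08, 0.10 and 0.16.

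Homeostatic2 against Homeostatic1 gave a median of -0.17 over 35 members and -0.20 over 10945 genes. On the TMM scale the members were at 0.02. No member was higher in 4 of 4 libraries (6.18% of all genes were) and 14 were lower in all 4 (31.8%). The lowest were Psma8 (-0.63), Psmc2 (-0.35), Psmd6 (-0.32) and Psmd1 (-0.31) and the highest Psmb2 (0.05), Psmb1 (0.02), Psmd3 (-0.02) and Psmb7 (-0.03). Psmb5, Psmb6 and Psmb10 were at -0.05, -0.11 and -0.11. Psmb8 and Psme1 were higher in 4 of 4 libraries, by 0.20 and 0.35, and Psmb9 and Psme2 were at 0.10 and 0.23.

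**Figure D5:**
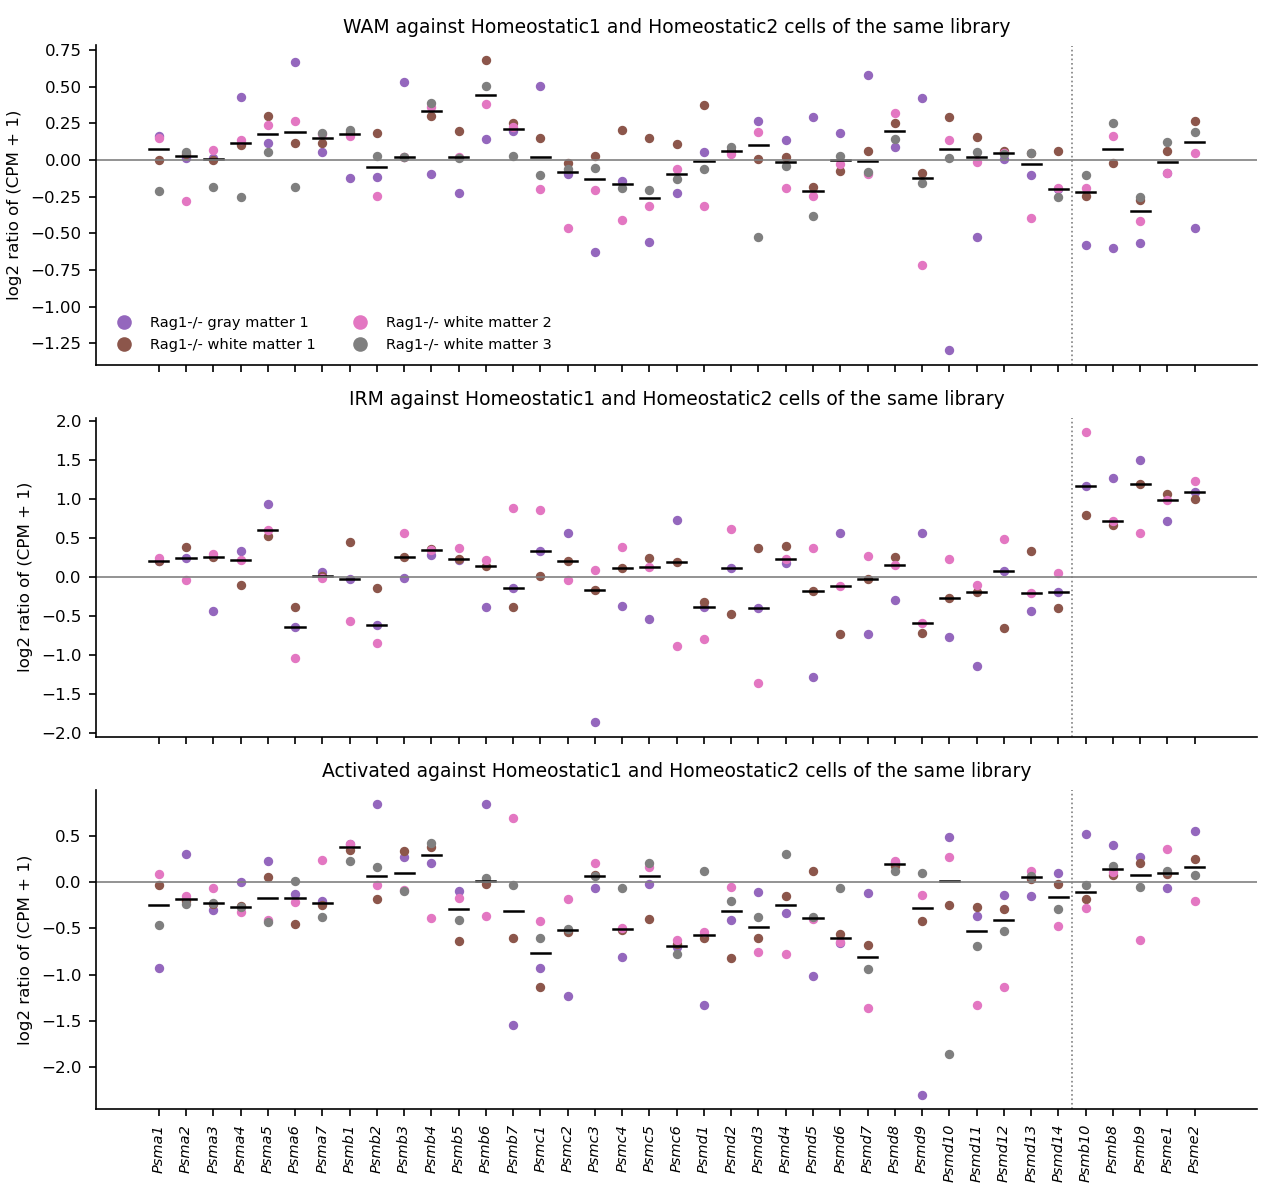
Log2 ratio of CPM + 1 of each member in WAM, IRM and Activated microglia to Homeostatic1 and Homeostatic2 cells of the same Rag1-/- library, with 1 point per library and a bar at the median. In Activated cells the medians are -0.52 for the ATPases, -0.35 for the other 19S genes and 0.07 for the beta ring. The median over all genes described there is -0.58. Psmb10 in IRM is above 0 in 3 of 3 libraries.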

How the data were processed

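Live brain cells were profiled with the 10x 3′ v3.1 chemistry. Per the methods of the study, reads were counted with Cell Ranger (3.0.2 in wild type, 4.0.0 and 6.1.2 in Rag1-/- batches 1 and 2), while the submitters' processing notes give Cell Ranger 4 and mm10. The authors filtered cells by UMIs, genes and mitochondrial share with limits that differed between batches, and deposited raw UMI counts per gene and cell with their cluster names. Genes that the study removed from its oligodendrocyte data were left out here for microglia too, so 16999 of 17001 were used.

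From these deposited counts, UMIs were summed per library and class (at least 10 cells). Rag1-/- microglia numbered 7421, after 9 that were not in the table of all cells were left out. Tissue and genotype were tested over libraries with edgeR 4.0.16 (quasi-likelihood, TMM, filterByExpr, R 4.3.3), with Benjamini-Hochberg adjustment over all genes tested and a threshold of 0.05. DESeq2 1.42.0 was an alternative. All groups of a class shared one estimate of spread. Each library is a pool of mice or 1 mouse, and p-values measure the spread between libraries. Clusters were compared without a test, as log2 ratios of CPM + 1 within a library for genes with at least 20 UMIs. The shares given for all genes were not matched to the members for level or spread. Doublets were not called again here, and no cells were removed beyond the authors' filters. Some of the fits were also run on simulated counts. These had a common spread for all genes and no batch differences, unlike these data.

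Named were the catalytic genes, Psmb10, the inducible partners, the 4 members of smallest p per test and the 4 highest and 4 lowest per cluster comparison, and other listed genes when called. Members and lists were chosen with earlier results of these data known. Some genes of the marker lists are not reported here and were left out of the sums. Gray and white matter of a wild-type batch came from the same mice per the study's list of animals. Their residuals correlated (r = 0.409 over 13067 genes). Mice and batch coincide here, so this r does not tell them apart, and with 2 libraries per group both batches give the same r. For Rag1-/- tissues the block was the batch. Across genotypes equal numbers do not pair the libraries. Alternatives for the tests were library size or DESeq2 size factors in place of TMM, no filter on low counts, fits of the compared libraries alone, the replicate block and leaving out each library; for clusters they were CPM + 5, TMM scaling, at least 25 cells, the mean over cells and leaving out each library.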

Additional observations from a re-analysis of the deposited data

How the results depend on the processing

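Over 112 alternative fits of the tests, 107 called 0 members. The exceptions were the replicate block for wild-type tissues, with 1 member called in all oligodendrocytes and 1 in Oligo1 and Oligo2 (Psmb2 each time), and leaving out 1 library, with 0 to 1 for Rag1-/- tissues in all oligodendrocytes, 0 to 1 in Oligo1 and Oligo2, and 0 to 5 in microglia. In that order, the fits with a member called (without Rag1-/- white matter library 1) called 2.11%, 1.91% and 24.7% of all genes. Of 61 alternatives for cluster medians, 52 moved by less than the spread between libraries. TMM scaling moved the median to 0.22 in WAM, 0.31 in Activated and 0.0178 in Homeostatic2 microglia. Leaving out a library gave 0.0408 to 0.0645 in ARO, -0.0563 to 0.082 in IRM and -0.20 to -0.12 in Homeostatic2. The cause was not tested.

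The sign turned in 45 of 829 alternatives for named genes, including Psmb7 values of 0.54, 0.50 and 0.37 and a Psmb10 value of 0.46 under the replicate block, and in 43 of 678 for named genes in cluster ratios. On library size alone Psmb6 was at -0.00491 between wild-type tissues, -0.00998 between genotypes in ARO and -0.00718 in microglia, where Psmb5 was at -0.14 and Psmb10 at -0.0714. With only the compared libraries Psmb6 was at -0.00171 between wild-type tissues. With the replicate block, Psmb7 was at -0.015 and Psmb6 at -0.19 between Rag1-/- tissues, and at -0.0524 and -0.20 in Oligo1 and Oligo2. The block also put Psmb7 at -0.0117 in microglia, Psmb6 at -0.00461 between genotypes in ARO, and, for the interaction, Psmb6 at -0.20, Psmb10 at -0.095 and Psmb6 in Oligo1 and Oligo2 at -0.18. Between genotypes the block was the batch number, which does not pair the libraries (residual r of 0.0575, 0.137 and -0.0663 across genotypes).

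Leaving out 1 library turned the sign of further values. In all oligodendrocytes the ranges were -0.0784 to 0.12 (Psmb6) and -0.14 to 0.00219 (Psmb7) between wild-type tissues, -0.28 to 0.13 (Psmb10), -0.0422 to 0.32 (Psmb7) and -0.027 to 0.18 (Psmb6) between genotypes, -0.0938 to 0.0396 (Psmb5) and -0.0599 to 0.17 (Psmb6) between Rag1-/- tissues, and -0.065 to 0.17 (Psmb6) for the interaction. In Oligo1 and Oligo2 they were -0.0374 to 0.15 (Psmb5), -0.11 to 0.0759 (Psmb6), -0.21 to 0.0265 (Psmb10) and -0.14 to 0.0158 (Psmb7) between wild-type tissues, -0.0596 to 0.31 (Psmb7), -0.00112 to 0.20 (Psmb6) and -0.0276 to 0.38 (Psmb10) between genotypes, -0.12 to 0.0179 (Psmb5) and -0.0605 to 0.16 (Psmb6) between Rag1-/- tissues, and -0.0536 to 0.18 (Psmb6) for the interaction. Between genotypes they were -0.0949 to 0.17 (Psmb6) in ARO, and -0.14 to 0.0348 (Psmb5), -0.37 to 0.21 (Psmb7) and -0.16 to 0.27 (Psmb6) in IRO. A group left with 1 library was assumed to vary like the others. Without the 1 Rag1-/- gray matter library no Rag1-/- tissue fit can be made. Depth limits IRO and IRM, which had few cells. It also limits WAM, Activated and Homeostatic2 in Rag1-/- gray matter, with 27, 27 and 29 cells, which enter the counts over 4 libraries. The joint homeostatic reference was mostly Homeostatic1 in gray matter (1634 of 1663 cells) and mostly Homeostatic2 in white matter batch 1 (1884 of 2669 cells).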
